A study of Mus musculus with 4 samples.

Results

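Aminoacyl-tRNA synthetases join each amino acid to its transfer RNA and so feed every ribosome. Their genes were taken by symbol from the gene tables of 4 RNA-seq libraries, which list 12750 genes in all. The 36 genes comprise 20 for cytosolic enzymes and 16 for mitochondrial enzymes, the latter being those whose symbols end in 2. Rows of their own were found for 35 of them, 19 cytosolic and 16 mitochondrial, and 33 had a row in all 4 libraries. The unit is FPKM (fragments scaled by transcript length and by the mapped fragments of the library), which is meant to put genes of different length on one scale. By the study's methods the cDNA was primed with poly(dT). Whether fragments covered whole transcripts evenly was not tested, so comparisons of level between genes rest on this scaling.

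The study asked how loss of GRK6, a kinase of G protein-coupled receptors, alters blood-forming cells. Wild-type (WT) mice and GRK6-/- littermates, germline knockouts on a C57BL/6 background from crosses of heterozygotes, were used untreated at 8 to 12 weeks by the study's methods. Hematopoietic stem cells (HSC) were sorted from bone marrow as Lin-c-kit+sca-1+ cells, a gate that also holds multipotent progenitors. Common lymphoid progenitors (CLP) were sorted by the same markers plus Il-7Ra. Each of the 4 groups (HSC or CLP, of either genotype) was 1 library made from 13 to 15 cells of 3 to 4 mice, whose cDNA was amplified cell by cell in PCR rounds of 20 and 10 cycles and then pooled. There were no replicates, so the spread between mice or between cells is unknown and no difference between 2 libraries could be tested. In such pools fewer cells that express a gene and less RNA per cell cannot be told apart.

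Grk6 itself, the targeted gene, had 42.7 FPKM in the WT and 89.4 in the GRK6-/- library of HSC, and 26.9 and 57.6 in those of CLP. The value was higher in each library titled KO than in its WT counterpart, which goes against the label. By the study's account the targeted allele lacks a run of exons common to all splice forms, and an FPKM over the whole gene cannot show whether fragments came from the deleted exons or from those that remain. The libraries are therefore called KO-labelled HSC and KO-labelled CLP, and every direction given holds for these labels. Il7r, which encodes the receptor chain of the CLP gate, had no row in WT HSC and 1.08 FPKM in KO-labelled HSC, against 120 and 75.1 in the CLP libraries. Listed lymphoid progenitor markers summed to 168 FPKM in WT HSC, 118 in KO-labelled HSC, 1369 in WT CLP and 1573 in KO-labelled CLP. In that order 2, 6, 9 and 8 of 10 markers had a row. From WT to KO-labelled CLP they moved both ways, Vpreb1 from 16.4 to 246 FPKM and Rag2 from 94.5 FPKM to no row. Markers of the stem and progenitor gate summed to 390, 498, 461 and 712 FPKM in the same order, highest in KO-labelled CLP. Listed markers of erythroid cells summed to 338 FPKM in WT HSC, 1701 in KO-labelled HSC, 154 in WT CLP and 18111 in KO-labelled CLP, with 6, 7, 6 and 7 of 10 markers having a row. Hba-a1, Hbb-b1 and Hbb-b2 had no row in any library. Without Hba-a2, which had 17220 FPKM in KO-labelled CLP, the erythroid sums were 332, 1648, 137 and 891 FPKM in the same order. Megakaryocyte markers summed to 123, 7.96, 13.2 and 82.6 FPKM (3, 3, 2 and 3 of 5 with a row) and myeloid markers to 17849, 11352, 9402 and 7810 (9, 8, 9 and 7 of 10), among them S100a8 with 1706 FPKM in WT HSC and 106 in KO-labelled HSC. The libraries were scaled to about 2880000, 3790000, 4350000 and 2780000 fragments, as estimated from steps in the low values, so that 1 fragment on a 2 kb transcript was worth 0.115 to 0.18 FPKM.

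The cytosolic and mitochondrial enzymes are mostly encoded by separate nuclear genes, and those of the mitochondrion charge the transfer RNAs that read the organelle's own transcripts. Gars and Kars are exceptions, since a single gene gives rise to both forms, and no mitochondrial glutaminyl enzyme is needed because glutamine is made on its transfer RNA by amidation. In the cytosol, 8 of the enzymes (Eprs, Iars, Lars, Mars, Qars, Rars, Kars and Dars) assemble with scaffold proteins into the multi-synthetase complex. Shortage of amino acids activates the kinase GCN2 and the transcription factor ATF4, of which several cytosolic synthetase genes are known targets.

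The letters of the ATF4 composite element were searched for in RefSeq promoters (250 bases before to 50 after the gene start, GRCm38.p6), since the list holds known ATF4 targets. The pattern TGATGNAAN, on either strand, was found in 5 of the 27 synthetase genes with a promoter in the table, against 4.5% of 27025 genes. All 5 were cytosolic (5 of 13, 38.5%), and 0 of 14 mitochondrial promoters held it. For Aars, Gars and Tars a match lay before the gene start, and the 61 bases around it or up to the start are shown at chr8:111033703-111033763, chr6:55037940-55038000 and chr15:11399659-11399719, the last on the minus strand. For Iars and Yars it began 6 and 3 bases past the start, and only 29 bases are shown, at chr13:49682126-49682154 and chr4:129189896-129189924. Each sequence reads 5′ to 3′ on the strand of its gene, and capitals mark the match, which is on the opposite strand except in Yars.
Aars: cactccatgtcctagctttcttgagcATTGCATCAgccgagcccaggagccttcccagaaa
Gars: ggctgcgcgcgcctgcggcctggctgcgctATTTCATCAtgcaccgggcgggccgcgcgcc
Tars: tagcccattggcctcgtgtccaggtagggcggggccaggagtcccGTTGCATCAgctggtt
Iars: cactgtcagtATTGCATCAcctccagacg
Yars: cgagctcagcTGATGCAACccgacgggac
A match of these letters is a description of the sequence and not evidence of binding. Aars held a further match 8 bases past its start. Of the 4 of these genes with their own row, Gars and Yars were highest in WT HSC, Tars in KO-labelled CLP and Iars in KO-labelled HSC.

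Cytosolic enzymes had higher levels than mitochondrial ones in all 4 libraries. The median FPKM of the 19 cytosolic genes was 39.1 in WT HSC, 37.7 in KO-labelled HSC, 29.6 in WT CLP and 30.7 in KO-labelled CLP. These medians lay between the 72.4 and the 80.1 percentile of all genes with a row in the same library. The median of the 16 mitochondrial genes was 8.73, 12.6, 8.36 and 3.32 FPKM in the same order. The mitochondrial median was thus highest in KO-labelled HSC, at percentile 56.9 of all genes, and lowest in KO-labelled CLP, at percentile 23.8. The low median there was not a fall of each gene. Only 4 of the 16 genes had their lowest value in KO-labelled CLP, against 6 in WT CLP and 5 in WT HSC. Of all genes 23.1%, 25.2% and 31.4% had theirs in these libraries. The ratio of the cytosolic to the mitochondrial median was 4.48 in WT HSC, 2.99 in KO-labelled HSC, 3.54 in WT CLP and 9.23 in KO-labelled CLP. The ratio of summed FPKM, which high genes dominate, was 4.90, 3.44, 5.17 and 5.05, and KO-labelled HSC had the lowest ratio by either measure while KO-labelled CLP stood apart by the medians only. Across the 35 genes, Spearman's rho of level with transcript length was between -0.38 and -0.08 in the 4 libraries, given as a description. Within the mitochondrial class rho was -0.54 in WT HSC, -0.48 in KO-labelled HSC, -0.04 in WT CLP and -0.39 in KO-labelled CLP. Within the cytosolic class it was between -0.26 and -0.01. The part of transcript length in the class difference was not tested.

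**Figure D1:**
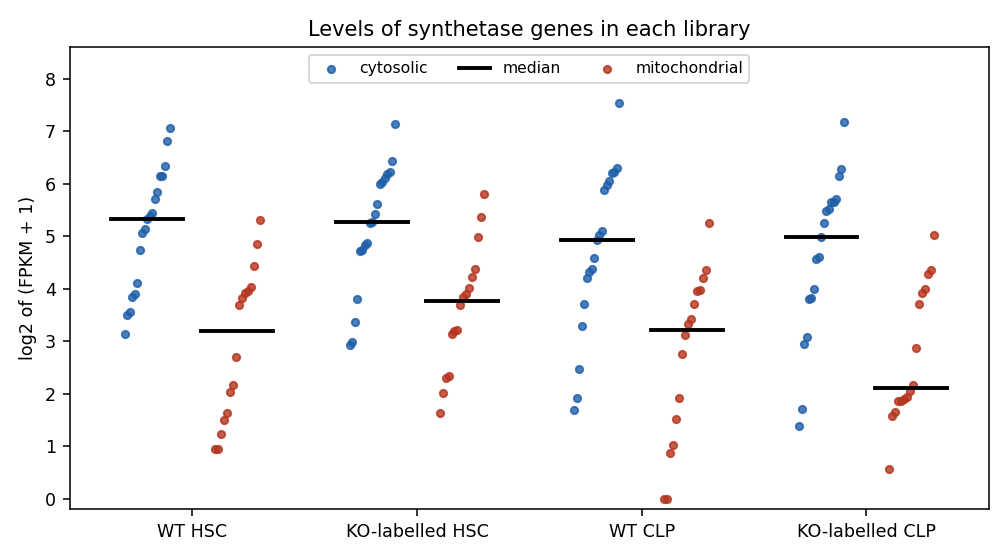
Levels of the synthetase genes as log2 of (FPKM + 1), for 19 cytosolic and 16 mitochondrial genes in each of the 4 libraries, 1 point per gene, with black bars at the median. The cytosolic medians stay between 4.94 and 5.33 while the mitochondrial median is 3.76 in KO-labelled HSC and 2.11 in KO-labelled CLP, and the points at 0 in WT CLP are Ears2 and Pars2, which have no row there.

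The highest cytosolic gene by mean level was Kars, for the lysyl enzyme, with 39.1 FPKM in WT HSC, 85.7 in KO-labelled HSC, 185 in WT CLP and 49.3 in KO-labelled CLP. WT CLP stood above the other libraries, and its value was the highest of any synthetase in the series. Farsa, the catalytic subunit of the phenylalanyl enzyme, had 70.2, 140, 23.0 and 69.5 FPKM in the same order. KO-labelled HSC was the highest and WT CLP the lowest for Farsa, whereas Farsb, the other subunit of the same enzyme, was flatter, with 25.9, 25.3, 31.6 and 13.2 FPKM. Cars, for cysteine, and Sars, for serine, were the lowest cytosolic genes. Cars had 7.83, 9.31, 2.23 and 7.43 FPKM, with only WT CLP low. Sars had 10.3, 6.93, 4.56 and 2.27 FPKM, both HSC libraries lying above both CLP libraries.

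Among mitochondrial enzymes Cars2, for cysteine, and Yars2, for tyrosine, had the highest mean level. Cars2 had 38.6 FPKM in WT HSC, 54.8 in KO-labelled HSC, 7.65 in WT CLP and 15.0 in KO-labelled CLP. Yars2 had 27.8, 40.1, 17.6 and 19.6 FPKM in the same order. Both genes were higher in each HSC library than in either CLP library. Wars2, for tryptophan, and Hars2, for histidine, were the lowest. Wars2 had 0.937, 2.11, 1.03 and 0.485 FPKM, which correspond to an estimated 12, 35, 20 and 6 fragments. Hars2 had 1.82, 8.17, 0.823 and 2.13 FPKM, an estimated 18, 103, 12 and 20 fragments, and KO-labelled HSC was clearly the highest library for it. These estimates and the precision they give cover counting only.

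**Figure D2:**
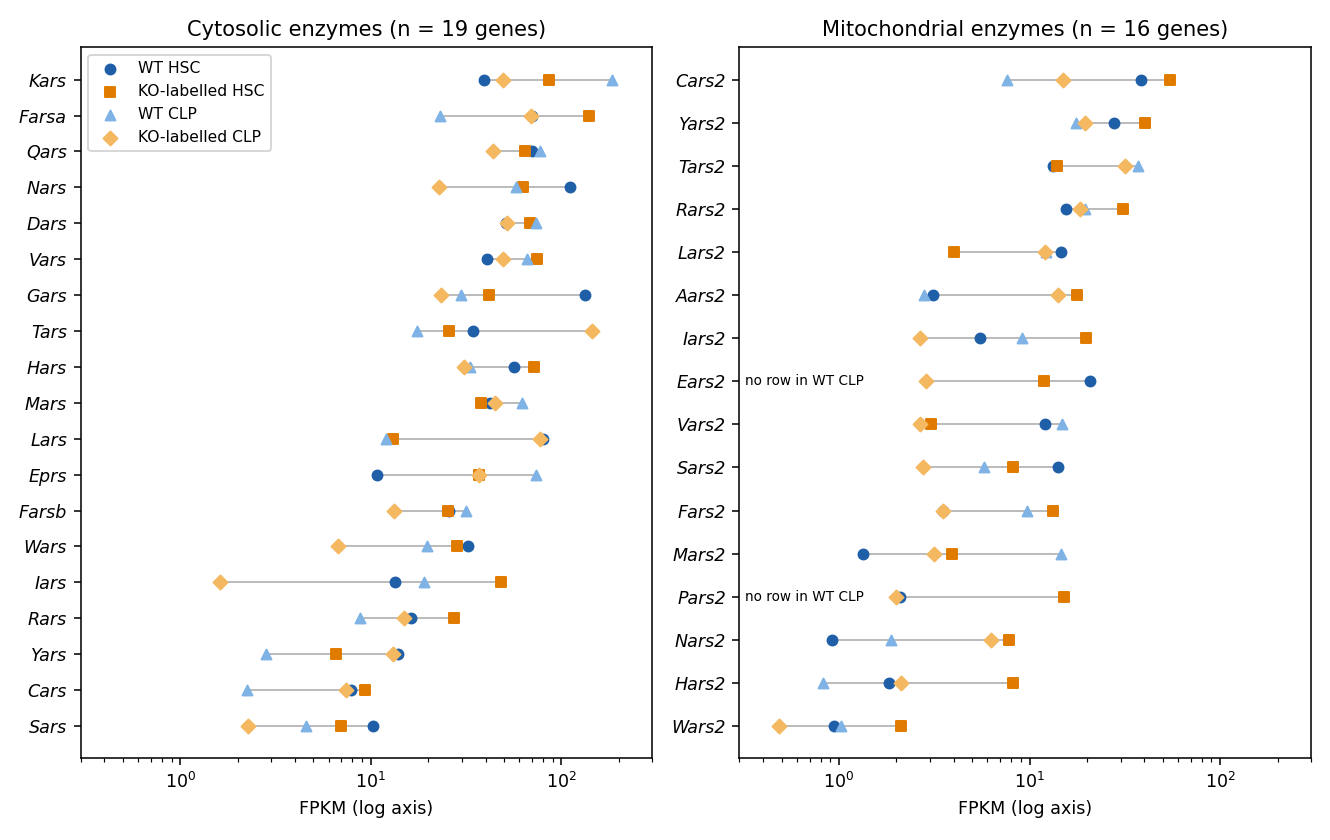
FPKM of each of the 35 synthetase genes in the 4 libraries on a log axis, cytosolic genes on the left and mitochondrial genes on the right, ordered by mean level, with a grey line from the lowest to the highest value. Iars spans the widest range (29.7-fold) and Dars the narrowest (1.43-fold).

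The level of a synthetase gene varied over the 4 libraries by a median of 4.81-fold from lowest to highest in the 33 genes with a row in each. Over all 8246 genes with 4 rows the median was 3.91-fold, and it was 3.13-fold for the 5399 of these with a mean FPKM of at least 10. Dars, for aspartate, was the steadiest, with 51.2, 68.5, 73.5 and 51.7 FPKM in the order WT HSC, KO-labelled HSC, WT CLP and KO-labelled CLP. Qars, for glutamine, had 69.9, 64.4, 77.5 and 43.7 FPKM and a range of 1.77-fold, with KO-labelled CLP the lowest. Iars, for isoleucine, ranged most widely, and the mitochondrial genes ranged from 1.99-fold in Rars2 to 10.9-fold in Mars2.

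The first comparison, KO-labelled HSC against WT HSC, asked which synthetase genes differed with the genotype label in the stem cell gate. A gene was counted as past the 2-fold change where log2 of (FPKM + 1) differed by at least 1, a size and not a test. Of the 35 genes 10 were higher and 4 lower in KO-labelled HSC, which is 40%, against 37.4% of the 11624 genes with a row in either library (19.3% higher and 18% lower). The cytosolic share was 3 higher and 2 lower of 19, with a median log2 difference of -0.03. The mitochondrial share was 7 higher and 2 lower of 16, with a median of 0.82, and 12 of 16 lay above 0. Over all genes the median was 0.05 and 51.8% lay above 0.

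Genes with a mean of 1 to 10 FPKM passed the threshold more often than genes above that, so the counts were also read within bands of mean FPKM over both libraries. Between 1 and 10 FPKM, 5 mitochondrial genes were higher and 2 lower of 8 (87.5% past the change), against 50.8% of 4288 genes, of which 26.6% were higher. Between 10 and 100 FPKM, 2 of 8 mitochondrial and 5 of 16 cytosolic genes passed, against 35.6% of 4678 genes. In the lower band the mitochondrial share was above that of all genes, and in the higher band both classes were below it. Marker sums given above differed between the same pair of libraries, from 338 to 1701 FPKM for erythroid and from 123 to 7.96 FPKM for megakaryocyte markers, and their part in these counts was not tested.

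**Figure D3:**
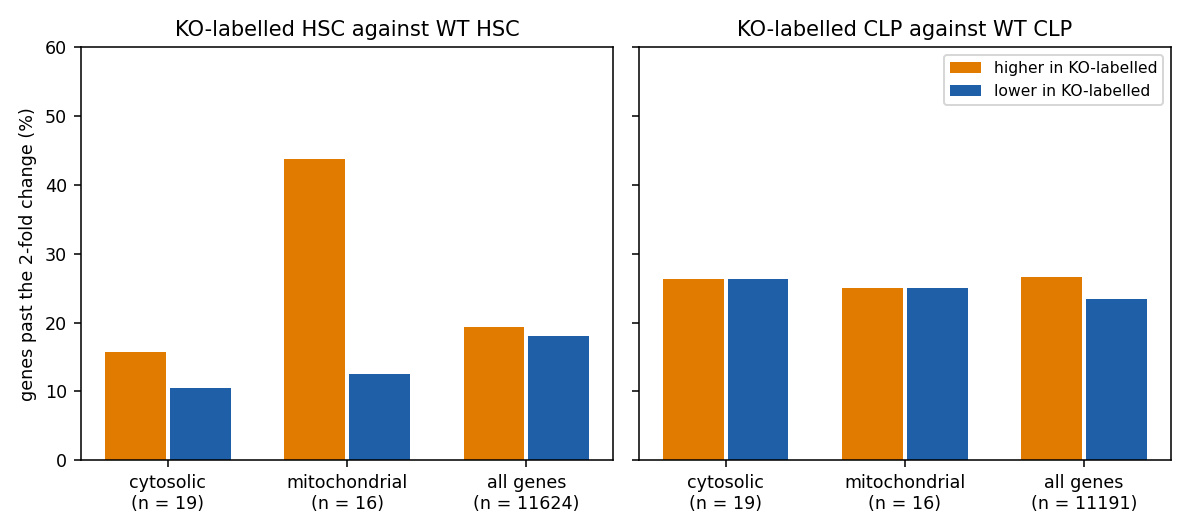
Share of genes past the 2-fold change (%) in the HSC and the CLP comparison, as bars from 0 for 19 cytosolic genes, 16 mitochondrial genes and all genes with a row, orange for higher and blue for lower in the KO-labelled library. In HSC 7 of 16 mitochondrial genes are higher against 19.3% of all genes, and in CLP no bar of either class is far from that of all genes.

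In HSC the largest higher values were those of mitochondrial enzymes. Pars2, for proline (mm9 chromosome 4, 106323674 to 106327887), had 2.09 FPKM in WT HSC and 15.1 in KO-labelled HSC, no row in WT CLP and 1.99 FPKM in KO-labelled CLP. KO-labelled HSC stood alone at the top for Pars2, with an estimated 174 fragments against 18 and 17 in the others, and the log2 difference in HSC was 2.38. Nars2, for asparagine, had 0.919, 7.79, 1.87 and 6.28 FPKM in the order WT HSC, KO-labelled HSC, WT CLP and KO-labelled CLP. Its WT HSC value rests on an estimated 10 fragments, against 112 in KO-labelled HSC. Aars2, for alanine, had 3.11, 17.6, 2.79 and 14.1 FPKM in that order. For Nars2 and Aars2 both KO-labelled libraries lay above both WT libraries, with log2 differences of 2.20 and 2.18 in HSC and of 1.34 and 1.99 in CLP.

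The other mitochondrial genes past the 2-fold change in HSC were Hars2 (log2 difference 1.70), Iars2 (1.69), Fars2 (1.67) and Mars2 (1.08), all higher, and Vars2 (-1.69) and Lars2 (-1.63), both lower. Lars2, for leucine, had 14.6, 4.03, 12.12 and 12.05 FPKM in the order WT HSC, KO-labelled HSC, WT CLP and KO-labelled CLP. KO-labelled HSC was the only low library for Lars2, and the log2 difference in CLP was -0.01. The higher values in KO-labelled HSC were not common to the whole mitochondrial class. Of its 16 genes 4 lay below 0, 2 of them past the threshold, and 7 lay within the threshold on either side of 0.

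Among cytosolic genes in HSC, the higher values belonged to members of the multi-synthetase complex. Iars (mm9 chromosome 13, 49777499 to 49829636) had 13.4 FPKM in WT HSC, 48.0 in KO-labelled HSC, 18.9 in WT CLP and 1.61 in KO-labelled CLP, with log2 differences of 1.76 in HSC and -2.93 in CLP. Eprs, which charges both glutamate and proline, had 10.7, 37.1, 73.3 and 37.1 FPKM, with log2 differences of 1.70 and -0.96. Kars, with the values given above, differed by 1.11 and -1.89. The 3 genes were named for being higher in KO-labelled HSC, and in each of them WT CLP exceeded KO-labelled CLP. This was not common to the complex, since Lars, also a member, had log2 differences of -2.53 in HSC and 2.59 in CLP.

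The lower cytosolic genes in HSC were Lars, for leucine, and Gars, for glycine. Lars had 79.9 FPKM in WT HSC, 13.0 in KO-labelled HSC, 12.02 in WT CLP and 77.2 in KO-labelled CLP. The values of Lars fell into a high pair and a low pair that crossed genotype label and population, with log2 differences of -2.53 in HSC and 2.59 in CLP. Gars (mm9 chromosome 6, 54987995 to 55029498) had 134, 41.9, 29.6 and 23.3 FPKM, so that WT HSC stood alone, with a log2 difference of -1.65 in HSC and -0.34 in CLP. Farsa (0.98) and Yars (-0.98) lay just inside the threshold in HSC.

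Within the multi-synthetase complex 3 of 8 genes were higher and 1 lower in HSC, and 0 higher and 1 lower of the 11 cytosolic genes outside it, beside 19.3% higher and 18% lower of all genes. In CLP the counts were 1 higher and 2 lower of 8 in the complex and 4 higher and 3 lower of 11 outside it, beside 26.6% and 23.4% of all genes. The scaffold genes, which hold the complex together, differed among themselves. Aimp1 had 73.5 FPKM in WT HSC, 202 in KO-labelled HSC, 99.7 in WT CLP and 68.6 in KO-labelled CLP, while Aimp2 had 64.2, 56.0, 41.0 and 36.0. Eef1e1 had 19.1, 32.9, 74.1 and 16.2 FPKM in the same order. Aimp1 was thus highest in KO-labelled HSC and Eef1e1 in WT CLP, and Aimp2 had no log2 difference beyond -0.19 between genotype labels.

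The second comparison asked the same of CLP. Of the 35 genes 9 were higher and 9 lower in KO-labelled CLP, which is 51.4% and close to the 50% of 11191 genes (26.6% higher and 23.4% lower). Without Ears2 and Pars2, which had no row in WT CLP, 7 were higher and 9 lower of 33, or 48.5%. Of the 8806 genes with a row in both CLP libraries 45.0% passed, 23.5% being higher. Of the cytosolic genes 5 were higher and 5 lower of 19, with a median log2 difference of -0.47 and 13 of 19 below 0. Of the mitochondrial genes 4 were higher and 4 lower of 16, with a median of -0.04. Over all genes the median was 0.05 and 51.5% lay above 0. The counts in CLP were close to the background. Erythroid markers differed here from 154 to 18111 FPKM in sum (137 to 891 without Hba-a2) and megakaryocyte markers from 13.2 to 82.6 FPKM, and their part was not tested.

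Tars, for threonine (mm9 chromosome 15, 11313418 to 11329413), had the largest higher value in CLP, with 34.4 FPKM in WT HSC, 25.7 in KO-labelled HSC, 17.5 in WT CLP and 144 in KO-labelled CLP. Only KO-labelled CLP was high, with a log2 difference of 2.98, and Tars differed by -0.40 in HSC. Lars, described above, followed with 2.59. Aars2 was the next, with 1.99. Yars, for tyrosine, had 13.9, 6.60, 2.80 and 13.0 FPKM in the same order of libraries, so that WT HSC and KO-labelled CLP were alike and the other pair lower, with a log2 difference of 1.88 in CLP. Ears2, for glutamate, had 20.7 FPKM in WT HSC, 11.9 in KO-labelled HSC, no row in WT CLP and 2.86 in KO-labelled CLP, and no fold is given against the library without a row. The count also includes Farsa (1.55) and Cars (1.38).

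The largest lower value in CLP was that of Iars at -2.93, where KO-labelled CLP had an estimated 20 fragments against 364 in WT CLP. Vars2, for valine in the mitochondrion (mm9 chromosome 17, 35792580 to 35804537), had 12.003 FPKM in WT HSC, 3.02 in KO-labelled HSC, 14.8 in WT CLP and 2.65 in KO-labelled CLP. Both WT libraries lay above both KO-labelled libraries for Vars2, with log2 differences of -1.69 in HSC and -2.12 in CLP. Mars2, for methionine, had 1.34, 3.93, 14.6 and 3.15 FPKM in the same order, with WT CLP well above the rest and a log2 difference of -1.91 in CLP. Fars2, for phenylalanine, had 3.49, 13.3, 9.71 and 3.50 FPKM, and Iars2, for isoleucine, had 5.47, 19.9, 9.08 and 2.65. For Fars2 and Iars2 KO-labelled HSC was the highest library, and the log2 differences in CLP were -1.25 and -1.47. Wars (-1.43), Nars (-1.30) and Farsb (-1.20) were the other lower cytosolic genes.

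Across both comparisons 10 of the 35 genes passed the 2-fold change in both populations, 12 in only 1 of them and 13 in neither. These are 28.6%, 34.3% and 37.1%, against 20.9%, 44.4% and 34.7% of the 10398 genes with a value in both comparisons. Of the 10, Aars2, Nars2 and Pars2 were higher in both KO-labelled libraries and Vars2 was lower in both. The remaining 6 went in opposite directions, Iars, Kars, Fars2, Iars2 and Mars2 being higher in HSC and lower in CLP and Lars the reverse. Of all genes 10.1% passed in a common direction and 10.8% in opposite directions, against 11.4% and 17.1% of the synthetase genes. All 4 genes with a common direction were mitochondrial, and 3 of the 6 with opposite directions were cytosolic. The 13 within the threshold in both populations were Cars2, Dars, Hars, Mars, Qars, Rars, Rars2, Sars, Sars2, Tars2, Vars, Wars2 and Yars2.

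**Figure D4:**
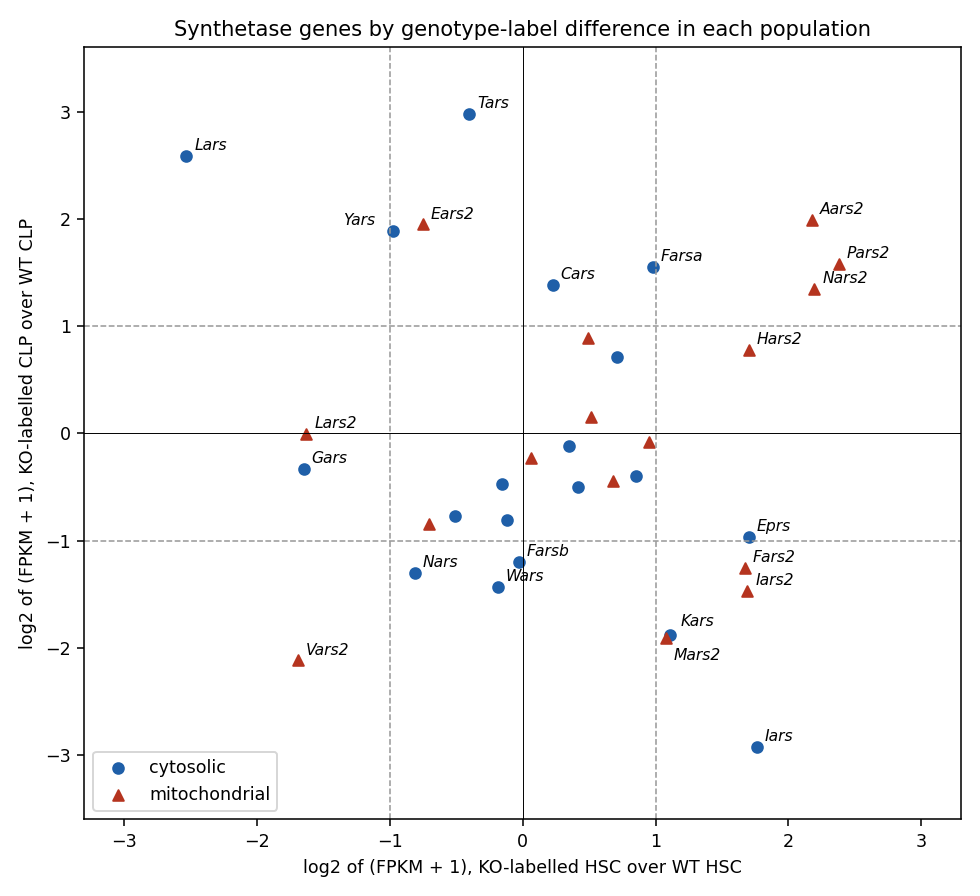
Log2 difference of (FPKM + 1) between the KO-labelled and the WT library in HSC (horizontal) and CLP (vertical) for the 35 synthetase genes, blue circles cytosolic and red triangles mitochondrial, with dashed lines at the 2-fold change and names for genes past it in either population. Aars2, Nars2 and Pars2 lie at the upper right, Vars2 at the lower left, Lars at the upper left (-2.53, 2.59) and Iars at the lower right (1.76, -2.93), and the vertical positions of Ears2 and Pars2 rest on an FPKM of 0 in WT CLP.

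A genotype effect common to both populations, and a population effect common to both genotype labels, were estimated by limma in an additive fit over all 4 libraries with 1 residual degree of freedom. With Benjamini-Hochberg adjustment limma called 0% of 11230 genes for genotype at an adjusted p under 0.05, and 500 genes had an unadjusted p under 0.05. No synthetase gene was among those 500, and Aars2 had the lowest limma p of the list (0.0528, adjusted p 0.999, higher in both KO-labelled libraries). For population limma called 1 gene (0.0089%), Ly6d, named here after its values were seen, which marks lymphoid progenitors and had no row in either HSC library and 1438 and 1051 FPKM in the CLP libraries. Ears2 was the only synthetase gene with an unadjusted limma p under 0.05 for population (0.0165, adjusted p 0.782, higher in the HSC library under both labels). Its missing row in WT CLP was taken as 0, and its KO-labelled CLP value rests on an estimated 16 fragments. With 1 residual degree of freedom the limma values do not show that the other genes were alike.

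The populations were then compared within each genotype label, which uses the same libraries again. In WT, 10 of the 35 genes were at least 2-fold higher in HSC than in CLP and 5 lower, against 24.7% and 21.8% of 11202 genes (46.5% in either direction). In the KO-labelled libraries 13 were higher in HSC and 4 lower, against 23.4% and 22.3% of 11708 genes (45.6% in either direction). There 29 of 35 genes had a value above 0, against 52.8% of all genes. Of the mitochondrial genes 14 of 16 lay above 0, with a median log2 difference of 1.03, against 0.08 over all genes. In WT 19 of 35 genes lay above 0, against 52.7% of all genes, and the mitochondrial median was 0.03. The cytosolic median differed little between labels, at 0.74 in WT and 0.79 in the KO-labelled libraries.

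Seen by library, 10 of the 16 mitochondrial genes had their highest value in KO-labelled HSC and 0 in KO-labelled CLP, while 25.1% and 27.0% of all genes had theirs in these libraries. Of the 19 cytosolic genes 6 were highest in each of WT HSC, KO-labelled HSC and WT CLP, and 1, Tars, was highest in KO-labelled CLP. KO-labelled CLP held the lowest value of 8 cytosolic genes (42.1%), against 28.6% of the genes with a row in all 4 libraries. Nars, for asparagine, had 111 FPKM in WT HSC, 63.0 in KO-labelled HSC, 57.6 in WT CLP and 22.8 in KO-labelled CLP. Wars, for tryptophan, had 32.3, 28.3, 19.8 and 6.72 FPKM, so that Wars and Nars were both lowest in KO-labelled CLP.

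The cytosolic and mitochondrial enzymes for the same amino acid were set side by side in 16 pairs. Some pairs share a gene, since Eprs was paired with both Ears2 and Pars2, and Fars2 with both Farsa and Farsb. The cytosolic gene was higher in all 4 libraries in 8 pairs, in 3 libraries in 4 pairs, in 1 library for Rars and Rars2, and in none for Cars and Cars2, Sars and Sars2, and Yars and Yars2. For asparagine the ratio of Nars to Nars2 was 121 in WT HSC, 8.08 in KO-labelled HSC, 30.8 in WT CLP and 3.62 in KO-labelled CLP, and it was lower under the KO label in both populations. The value of 121 rests on an estimated 10 fragments of Nars2. The Hars to Hars2 ratio was 30.8, 8.79, 40.4 and 14.4 in the same order, again lower in both KO-labelled libraries. This direction was not common to the pairs. The Vars to Vars2 ratio was 3.39, 24.5, 4.44 and 18.8, higher in both KO-labelled libraries. Farsa to Fars2, at 20.1, 10.5, 2.37 and 19.9, was lower in KO-labelled HSC and higher in KO-labelled CLP. The Sars to Sars2 ratio was steady, at 0.731, 0.843, 0.794 and 0.824. The steady ratio held although both serine genes were higher in HSC than in CLP. Rars, for arginine, had 16.3, 27.4, 8.74 and 15.0 FPKM and Rars2 15.5, 30.8, 19.5 and 18.4, nearly equal in all libraries but WT CLP.

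**Figure D5:**
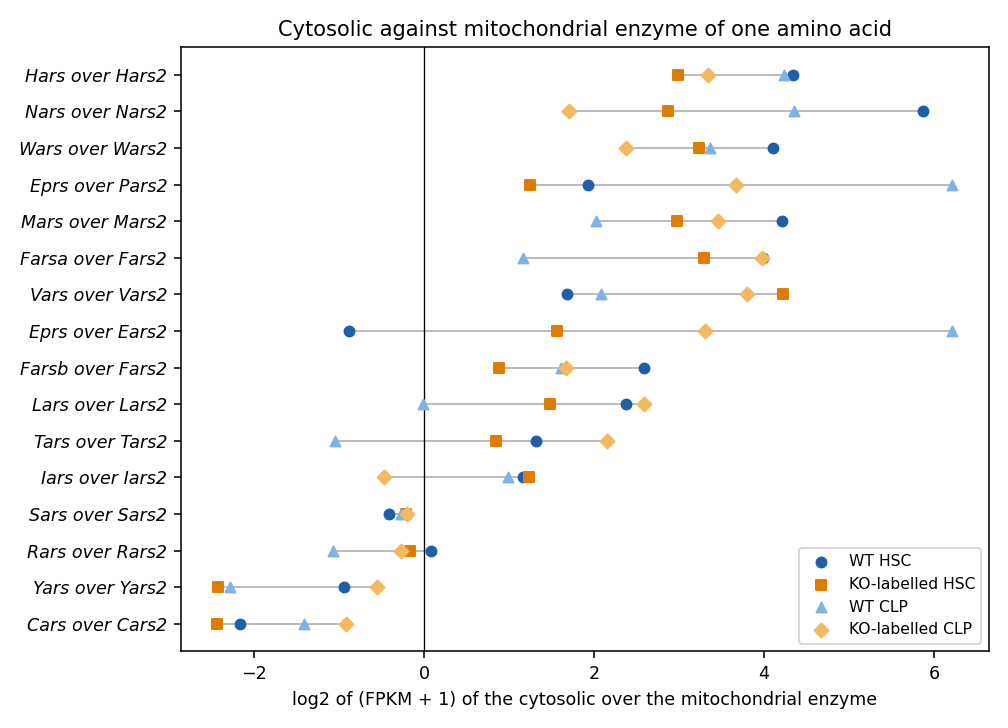
Log2 ratio of (FPKM + 1) of the cytosolic over the mitochondrial enzyme for 16 pairs in the 4 libraries, ordered by the mean, with a grey line from the lowest to the highest library. Pairs right of the line at 0 have the higher cytosolic gene, Sars over Sars2 hardly moves, and the WT CLP points of Eprs over Ears2 and over Pars2 rest on an FPKM of 0 for the mitochondrial gene.

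Genes that act with the synthetases were read from lists of 30 genes, of which 28 had a value in HSC and 27 in CLP. In HSC 11 of the 28 were higher and 3 lower, and in CLP 5 of the 27 were higher and 6 lower, beside 19.3% and 18% of all genes in HSC and 26.6% and 23.4% in CLP. In the mitochondrial amidation and formylation list, which makes the glutaminyl and the initiator transfer RNA, 3 of 4 were higher and 1 lower in HSC, and 2 higher and 1 lower in CLP. Qrsl1, a subunit of the amidation enzyme, had 4.01 FPKM in WT HSC, 18.6 in KO-labelled HSC, 66.8 in WT CLP and 7.22 in KO-labelled CLP. Mtfmt, which formylates the initiator, had 9.44, 31.6, 13.3 and 12.1 FPKM, with KO-labelled HSC the highest library, as for Iars2 and Pars2.

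In the amino acid stress list 3 genes were higher and 1 lower of 12 in HSC, and 0 higher and 3 lower of 11 in CLP, beside the same shares of all genes. The lower gene in HSC was Eif2ak4, which encodes the kinase GCN2, with 36.1 FPKM in WT HSC, 7.93 in KO-labelled HSC, 65.0 in WT CLP and no row in KO-labelled CLP. Atf4, the transcription factor at the centre of this response, had 193 FPKM in WT HSC, 156 in KO-labelled HSC, 158 in WT CLP and 176 in KO-labelled CLP, within the threshold in both. Asns, which makes asparagine, had 2.07, 67.1 and 0.124 FPKM in the first 3 libraries and no row in KO-labelled CLP. Phgdh, which opens serine synthesis, had 79.5, 222, 219 and 72.2 FPKM, and Ddit3, a stress transcription factor, had a row only in KO-labelled HSC, at 64.2 FPKM. These 3 genes were the higher ones in HSC. Of the synthetase genes with the motif letters and a row of their own, Iars was higher and Gars lower in HSC. In CLP Tars (log2 difference 2.98) and Yars (1.88) were higher and Iars (-2.93) was lower. A link between these genes and the stress list was not tested. Ddit3 overlaps Mars by 67 bp in the annotation, and the Mars row spans more sequence in KO-labelled HSC than in the other libraries. Mars, for methionine, had 42.3, 37.7, 62.4 and 44.7 FPKM.

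Several loci limit what a row can say. The files give loci in mm9, and in this build (GENCODE vM1) 17 of the 36 genes have a neighbour within 1 kb, 10 of them head to head, and 9 overlap a neighbour. Whether the counting used strand is not given in the sources used here, so fragments in an overlap cannot be assigned. Aars, for alanine, had no row of its own and is not among the 17 genes counted with a neighbour, although its locus was named with Exosc6. Its locus on chromosome 8 (from 113557867) was named Exosc6 in the HSC libraries, at 22.7 FPKM in WT and 33.3 in KO-labelled, and Aars with Exosc6 in the CLP libraries, at 14.4 and 36.2 FPKM. The value was higher in the KO-labelled library of each population, but how much of it belongs to Aars cannot be told apart, and Aars enters none of the counts of levels or differences.

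Hars and Hars2 lie head to head on chromosome 18, with 197 bp in common in the annotation. The deposited loci do not overlap. Hars runs there from 36926182 to 36942859, and Hars2 starts at 36942919 in KO-labelled HSC and at 36942934 in the other libraries. Hars, with 56.1, 71.9, 33.3 and 30.7 FPKM in the order WT HSC, KO-labelled HSC, WT CLP and KO-labelled CLP, was higher in HSC and differed little between labels. The log2 difference in HSC was 1.70 for Hars2 and 0.35 for Hars, whose start regions overlap in the annotation only. Orc3, whose start lies 13 bp from that of Rars2, had 14.2, 10.5 and 27.8 FPKM in the first 3 libraries and no row in KO-labelled CLP, while Rars2 kept 18.4 FPKM there. Terf2ip, 36 bp from Kars, had 3.46, 6.14, 4.04 and 0.0996 FPKM and was lower than Kars in each library. Eprs and Iars2 lie on the same chromosome 1 region, from 187186974 to 187252235 and from 187110541 to 187153280 in WT CLP, and both were higher in KO-labelled HSC than in WT HSC (log2 differences 1.70 and 1.69).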

How the data were processed

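RNA-seq was run on 4 pooled libraries, of HSC or CLP and of WT or GRK6-/- mice. The authors deposited FPKM values per gene, with symbols and loci, scaled by transcript length and mapped fragments; the submitters' processing notes name TopHat 1.4.0 and mm9. FPKM was summed over rows that share a symbol, a missing row was taken as 0, and 333 of 12750 genes named in rows with several genes were left out, leaving 12417. Differences are of log2(FPKM + 1), which understates the change of low genes. A planned test needed counts, which the files do not hold, so size alone was used, beside limma 3.58.1 (R 4.3.3) with Benjamini-Hochberg adjustment on genes that reached an FPKM of 1 in any library. Depth was estimated from steps in low values. The scripts (Python 3.11.15 with matplotlib 3.10.9, pandas 2.3.3, numpy 2.4.6 and scipy 1.17.1) were tested on simulated data. Genes named with all 4 values were those past the threshold in both populations, the 3 largest differences each way per population, the 2 highest and 2 lowest of each class by mean level, genes without a row somewhere, and Gars, Kars and Qars; others named are illustrations chosen after their values were seen. The genes and lists were chosen with earlier results of these data known. Alternatives were the pseudocount, filters on FPKM, rescaling, the threshold and limma's settings. A gene of the related lists is not reported here.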

Additional observations from a re-analysis of the deposited data

Results flagged for a closer look

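For 6 synthetase genes the difference between the KO-labelled and the WT library passed the 2-fold change upward in one population and downward in the other. They are 17.1% of the 35 genes, and 10.8% of all 10398 genes with a value in both comparisons did the same. Whether HSC and CLP differed in this was not tested, because a group was a single library. Iars had a log2 difference of 1.76 in HSC and -2.93 in CLP. Kars had 1.11 in HSC and -1.89 in CLP. Lars had -2.53 in HSC and 2.59 in CLP. Fars2 had 1.67 in HSC and -1.25 in CLP, Iars2 had 1.69 and -1.47, and Mars2 had 1.08 and -1.91.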

How the results depend on the processing

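No paired analysis was possible because each group holds 1 library, so that groups share no more than 1 replicate number, although limma's genotype effect is already estimated with population as a term. With a threshold of 2 on the log2 scale, 3 genes were higher and 1 lower in HSC, and 2 higher and 2 lower in CLP (11.4% in each, against 12.4% and 24.8% of all genes). With a mean FPKM of at least 10 over the libraries compared, 5 were higher and 2 lower in HSC (28% against 33.3%), 3 higher and 5 lower in CLP (38.1% against 45.0%), and the mitochondrial median in HSC was 0.50. With a mean FPKM under 10, added after seeing the data, 5 were higher and 2 lower in HSC (70% against 41.0%) with a mitochondrial median of 1.38, and in CLP 6 were higher and 4 lower (71.4% against 55.3%), the mitochondrial median was -0.45 and the cytosolic median turned to 1.38, over 3 genes only. These settings keep fewer genes or ask for a larger change. The cytosolic median of log2(FPKM + 1) in WT CLP was 4.48 without Gars, Kars and Qars against 4.94, and the mitochondrial median in KO-labelled CLP was 1.77 with a pseudocount of 0.1 against 2.11. limma called 57 genes for genotype with a mean-variance trend and 1 with quantile normalization against 0. For population it called 80 with the trend, 0 with a pseudocount of 0.1 and 0 without a filter on FPKM against 1. None of these calls was a synthetase gene, and the cause was not tested. Synthetase genes with an unadjusted limma p under 0.05 for genotype were 3 without the filter and 1 with a pseudocount of 0.1, against 0. Of all genes 3.8% and 3.9% had such a p. For population they were 3 without the filter and 3 with the trend, against 1, beside 4.9% and 6.8% of all genes. With a pseudocount of 0.1, Yars (-1.07) and Wars2 (1.09) in HSC and Hars2 (1.27) and Sars2 (-1.03) in CLP also passed the 2-fold change, while 49.8% and 59.2% of all genes did. Of the other 206 values of single genes, 205 kept their direction and all kept their side of the threshold under the pseudocount of 0.1, rescaling to a median log2 ratio of 0 and the highest row per symbol, the exception being Lars2 in CLP, at -0.0081 and at 0.0031 after rescaling. Precision is limited by pools of few cells and by low fragment numbers, such as 6 for Wars2 in KO-labelled CLP.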

Other observations

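The branch that makes selenocysteine on its transfer RNA, which begins with serine charged by Sars, was also read. Of its 4 listed genes 3 were at least 2-fold higher and 0 lower in KO-labelled HSC, and 2 were higher and 1 lower in KO-labelled CLP, beside 19.3% higher and 18% lower of all genes in HSC and 26.6% and 23.4% in CLP. Pstk, the kinase that phosphorylates the seryl transfer RNA, had 26.3 FPKM in WT HSC, 70.7 in KO-labelled HSC, 3.65 in WT CLP and 10.9 in KO-labelled CLP, higher under the KO label and in HSC. Secisbp2, which binds the selenocysteine signal in transcripts, had 0.601, 20.8, 26.4 and 6.97 FPKM, so WT HSC alone was low. Prorsd1, on the list of proofreading and related genes, had 4.95, 26.3, 1.28 and 14.1 FPKM, with log2 differences of 2.20 in HSC and 2.73 in CLP. Gatc, the third subunit of the amidation enzyme, had 20.7, 6.97 and 7.01 FPKM in WT HSC, KO-labelled HSC and KO-labelled CLP and no row in WT CLP.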
